A study of Mus musculus with 2 samples.

Results

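The Rab genes were taken as every gene whose symbol is Rab, a number and at most 1 further letter and number, with at least 1 transcript typed protein_coding. The rule found 59 genes among 55536 annotated genes, and all 59 belong to the 22015 nuclear protein-coding genes. Rab proteins are small GTPases that mark the membranes of the cell and direct the budding, transport, tethering and fusion of vesicles. Each Rab cycles between a GTP-bound form, which recruits effector proteins to its membrane, and a GDP-bound form, which is extracted from the membrane by a dissociation inhibitor, and lipid groups attached to cysteines at the tail anchor it. In neurons Rab proteins are known for the release of synaptic vesicles and for traffic of receptors along dendrites and axons.

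Levels come from total RNA sequencing of left cerebral cortex, taken from 2-month-old B6CASTF1/J females, which are F1 hybrids between C57BL/6J and CAST/EiJ. The series held 1 group of 2 biological replicates with 1 library each, and no treated, mutant or second tissue group, so the comparisons below are between genes, between the replicates and between 2 ways of quantifying the same reads. The labels give both replicates the same donor entry, and the spread between them may therefore be technical. The libraries held 31196858 expected counts in replicate 1 and 32292150 in replicate 2.

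Markers of neurons led in these libraries, as the label of cortex has it. Summed TPM (a count divided by transcript length and scaled to a total that is the same in every library) of 4 pan-neuronal markers was 2513 and 2441 in replicates 1 and 2, that of 3 oligodendrocyte markers 500.6 and 548, that of 3 astrocyte markers 188.7 and 188, and that of 3 microglial markers 59.9 and 57.7. Markers of choroid plexus summed to 7.73 and 36.2 TPM, of which Ttr took 6.12 and 34.3 TPM. Those of melanocytes summed to 0.5 and 0.68 TPM, and those of T cells and platelets to 5.82 and 3.47 TPM. In bulk tissue, fewer cells of a type and less RNA per cell cannot be told apart.

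The tail of the coding sequence carries the codons of the cysteines that take the lipid anchor, and it split the family into 3 forms. The last 30 coding bases of 5 abundant members, and of Rab8a to show the form with a lone cysteine codon, are given here from GENCODE M21 transcripts on mm10, 5′ to 3′ on the coding strand, with the cysteine codons near the end in capitals. Rab1b and Rab35 show adjacent cysteine codons, Rab3a, Rab6b and Rab7 a pair with 1 codon between them, and Rab8a a lone cysteine codon 4th from the end.
Rab1b (chr19:5100381-5100410, minus strand): cctgtgaagcctgctagcggtggcTGCTGC
Rab35 (chr5:115645729-115645758, plus strand): aaaaacagtaaacgaaagaaacgcTGCTGC
Rab3a (chr8:70758056-70758085, plus strand): caggcgccacctcatcaggatTGTgccTGC
Rab6b (chr9:103181214-103181243, plus strand): cccccggccagcgagggcggcTGCtccTGT
Rab7 (chr6:88000438-88000467, minus strand): gccaaggcctccgcagaaagcTGCagtTGT
Rab8a (chr8:72180105-72180134, plus strand): aggaccagcttcttccggTGCagtctcctg

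In the annotated principal transcripts, 30 Rab genes had adjacent cysteine codons within the last 6 codons, 20 had cysteine codons 1 apart and 9 had a lone cysteine codon 4th from the end. The 3 forms had median levels of 20.6, 20.1 and 15.1 TPM in replicate 1 and 19.6, 16.6 and 13.8 TPM in replicate 2, and each form held genes of high and of low level. The 9 with a lone cysteine codon were Rab8a, Rab8b, Rab13, Rab18, Rab23, Rab28, Rab38, Rab40b and Rab40c. Coding sequences ran from 194 codons in Rab22a to 725 codons in Rab44, with a median of 215 codons.

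A stretch of the GTP-binding fold is shared by most of the family. Its motif TGGGANACNGCNGGNCA, built from the codons of the conserved switch II stretch with N at each base that differs between codons, was searched in frame on the coding strand of the same transcripts. It occurred in 49 of the 59 Rab genes (83.1%), against 65 of 21497 nuclear protein-coding genes with a complete coding sequence (0.302%), the 49 Rab genes included. The 10 Rab genes without it were Rab7b, Rab20, Rab24, Rab25, Rab28, Rab29, Rab32, Rab38, Rab40b and Rab40c. Among these 10, Rab24, Rab28, Rab40b and Rab40c were above 10 TPM in both libraries, and Rab7b, Rab20, Rab25, Rab32 and Rab38 were below 1 TPM in both.

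Most of the Rab family was expressed in this cortex. At 1 TPM or more in both libraries stood 48 of 59 Rab genes (81.4%), against 12945 of 22015 nuclear protein-coding genes (58.8%). At 10 TPM or more stood 39 Rab genes (66.1%) against 36.7% of protein-coding genes, at 50 TPM or more 17 (28.8%) against 9.68%, and at 100 TPM or more 7 (11.9%) against 3.95%. The median Rab gene stood at 18.8 and 16.6 TPM in replicates 1 and 2, while the median over all nuclear protein-coding genes was 3.82 and 3.59 TPM. With genes under 1 TPM left out the gap was smaller, since the 48 detected Rab genes had medians of 23.8 and 22.9 TPM and the detected protein-coding genes medians of 16.6 and 15.5 TPM.

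The family took 0.585% ± 0.00688 of the TPM of nuclear protein-coding genes (SD, n = 2) and was concentrated in few genes. The 10 highest Rab genes held 60.9% ± 0.086 of the summed Rab TPM, and Rab3a alone held 13.7% ± 0.291. The 10 highest were the same genes in both quantifications. Between the replicates the order was nearly kept, with a Spearman's rho of 0.997 over the 59 genes as a description. Of the 58 pairs of neighbours in the order of mean levels, 30 had overlapping ranges of TPM over the 2 libraries. Nuclear protein-coding genes together took 46.7% of TPM in replicate 1 and 44.1% in replicate 2. The ranges therefore hold a shift shared by many genes, and an overlap does not mean that a pair changed order between the libraries.

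**Figure D1:**
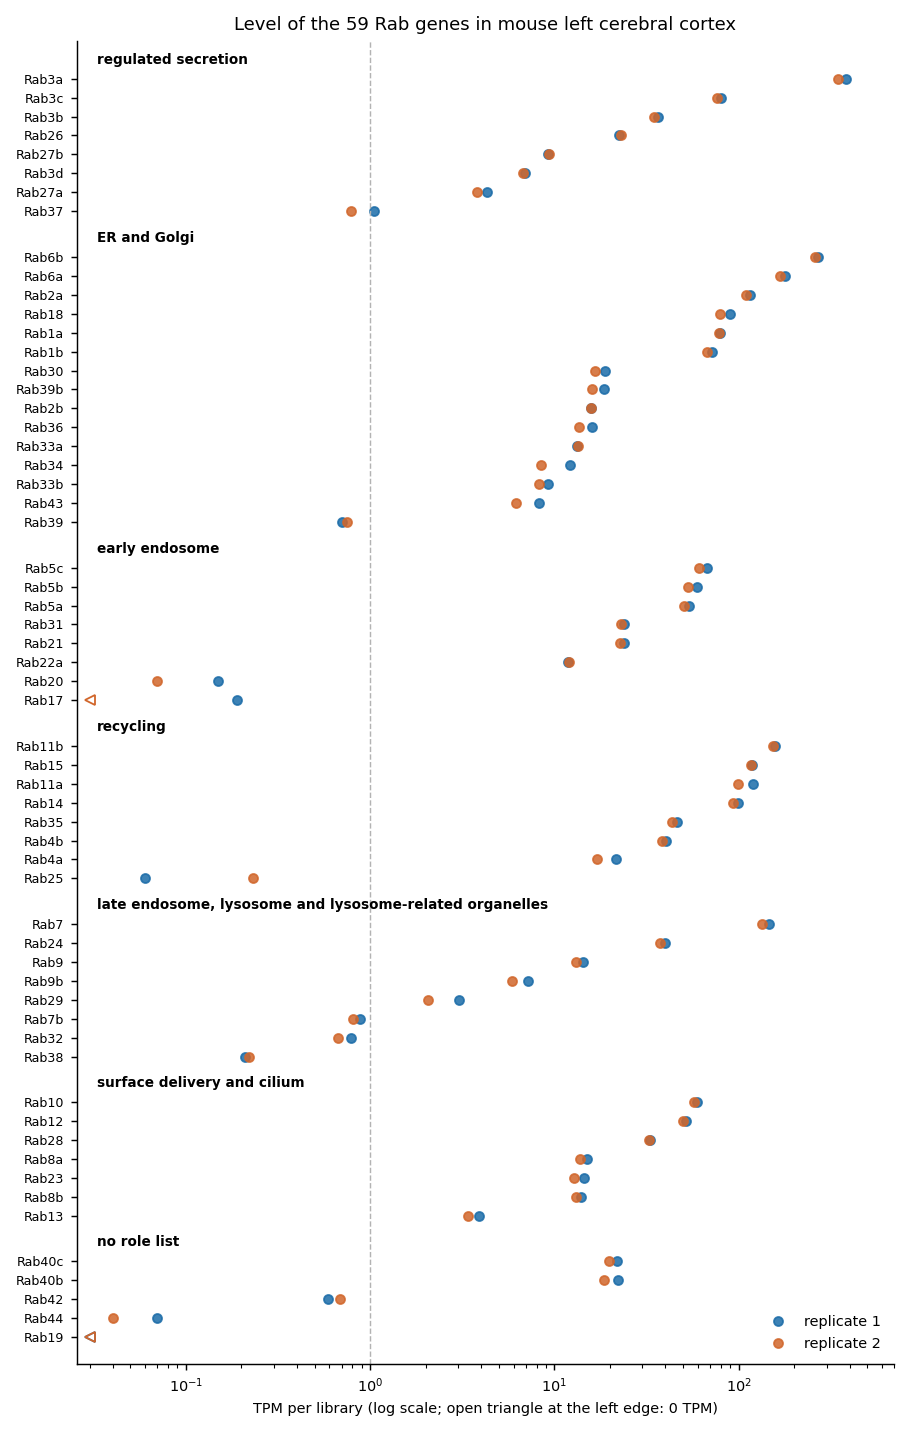
TPM of the 59 Rab genes in each of the 2 libraries on a log axis, by assigned role group and by mean level within a group. The dashed line marks 1 TPM and open triangles mark 0 TPM. Rab3a and Rab6b lie farthest to the right, and each of the 6 role groups holds genes above 50 TPM.

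Rab proteins of regulated secretion were led by Rab3a, the Rab of synaptic vesicles that regulates transmitter release. Rab3a (ENSMUSG00000031840.12, chromosome 8, 70754679 to 70758677, plus strand, mm10) was at 383 and 346 TPM in replicates 1 and 2, the highest of the family, and above 99.6% and 99.5% of nuclear protein-coding genes. Rab3c, a close relative also found on synaptic vesicles, was at 80.1 and 76.7 TPM. By expected counts the order of these genes was the other way round, with 11906 and 12436 counts for Rab3c against 9966 and 9656 for Rab3a, because the mean transcript was 7368 and 7504 bases long for Rab3c and 1371 and 1375 bases for Rab3a.

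Below them in the secretory group stood Rab3b, a further vesicle Rab, at 36.5 and 34.7 TPM, and Rab26, which has been tied to secretory granules and to the turnover of synaptic vesicles by autophagy, at 22.4 and 22.9 TPM. Rab27b and Rab27a, which dock secretory granules and lysosome-related organelles at the plasma membrane, averaged 9.29 ± 0.0849 and 4.07 ± 0.354 TPM (SD, n = 2), and Rab3d, best known from exocrine and other secretory granules, 6.82 ± 0.127 TPM. Rab37, a granule Rab known from mast cells and pancreatic islets, was lowest at 1.05 and 0.79 TPM, from 47 and 34 counts. The 8 genes of the group together held 19.7% ± 0.13 of the family's TPM, and 7 of them reached 1 TPM in both libraries.

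Rab proteins of the endoplasmic reticulum and Golgi formed the largest share, 33.5% ± 0.166 of family TPM over 15 genes, of which 14 reached 1 TPM in both libraries. Rab6b, a form of the Golgi Rab6 known to be enriched in neurons (chromosome 9, 103111787 to 103185276, plus strand), was at 270 and 259 TPM and had the most expected counts of the family, 26750 and 27599. Rab6a, the widely expressed form that acts in transport from the Golgi back to the endoplasmic reticulum (chromosome 7, 100607410 to 100641268, plus strand), was at 180 and 168 TPM. The ranges of Rab3a, Rab6b and Rab6a did not overlap in the alignment-based tables.

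Rab2a, which acts between the endoplasmic reticulum and the Golgi, was at 116 and 109 TPM. Rab18, a Rab of the endoplasmic reticulum and lipid droplets, was at 89.9 and 79.3 TPM. Rab1a and Rab1b, which carry traffic from the endoplasmic reticulum to the Golgi, were at 78.95 and 78.4 TPM and at 72.0 and 67.0 TPM. All 4 of these genes were thus above 50 TPM in both libraries. The next genes of the group were much lower: Rab30, a Golgi Rab, averaged 17.7 ± 1.61 TPM, Rab39b, whose loss causes X-linked intellectual disability in humans, 17.4 ± 1.86 TPM, Rab2b 15.8 ± 0.099 TPM and Rab36 14.7 ± 1.74 TPM (SD, n = 2). Rab33a, Rab34, Rab33b and Rab43 lay between 13.3 and 7.19 TPM on average, and Rab39, the paralog of Rab39b, was at 0.7 and 0.75 TPM.

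Recycling Rab genes held 21.9% ± 0.0242 of family TPM, with 7 of 8 genes at 10 TPM or more in both libraries. Rab11b, a Rab of recycling endosomes (chromosome 17, 33742484 to 33760530, minus strand), was at 157 and 153 TPM, and its paralog Rab11a at 120 and 99.1 TPM. Rab15, a regulator of recycling endosomes, was at 118 and 116 TPM, and Rab14, which acts between the trans-Golgi network and endosomes, at 99.5 and 93.5 TPM. Rab15, Rab2a and Rab11a lay close together in the order, and the ranges of Rab2a and Rab11a, and of Rab11a and Rab14, overlapped. Rab2a and Rab11a changed order between the libraries, while Rab11a was above Rab14 in each.

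Rab35, which drives fast recycling to the plasma membrane, averaged 44.6 ± 1.97 TPM, and the early recycling Rab genes Rab4b and Rab4a 39.3 ± 1.37 and 19.3 ± 3.16 TPM (SD, n = 2). Rab25, a relative of Rab11 known from epithelia, was at 0.06 and 0.23 TPM, from 1 and 2 counts. Its level was far below that of both Rab11 genes in each library.

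Early endosomal Rab genes held 8.68% ± 0.0393 of family TPM. The 3 genes of Rab5, the master regulator of early endosome fusion, stood near each other, with Rab5c at 67.0 and 60.6 TPM, Rab5b at 59.5 and 52.8 TPM and Rab5a at 53.5 and 50.2 TPM. The ranges of Rab5b and Rab5a overlapped, although Rab5b was above Rab5a in each library, whereas that of Rab5c lay above both. Rab31 and Rab21, which act in endosomal sorting and integrin traffic, averaged 23.3 ± 0.601 and 23.3 ± 0.799 TPM, and Rab22a 11.9 ± 0.127 TPM (SD, n = 2). Rab20, known from phagosomes, had 4 and 2 counts (0.15 and 0.07 TPM), and Rab17, known from polarised epithelia, had 2 counts in replicate 1 (0.19 TPM) and 0 in replicate 2.

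Late endosomal and lysosomal Rab genes held 7.65% ± 0.0801 of family TPM, and Rab7 was the highest of the 8 genes. Rab7, which governs maturation and lysosomal fusion of late endosomes (chromosome 6, 87999106 to 88045270, minus strand), was at 146 and 134 TPM. Rab24, an atypical Rab linked to autophagy, was at 39.8 and 37.2 TPM. Rab9, which returns mannose 6-phosphate receptors to the Golgi, averaged 13.8 ± 0.863 TPM, Rab9b 6.54 ± 0.884 TPM and Rab29, a partner of the kinase Lrrk2, 2.55 ± 0.693 TPM (SD, n = 2).

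Of the other members of this group, Rab7b was at 0.88 and 0.81 TPM, and Rab32 and Rab38, which serve melanosomes and other lysosome-related organelles, were at 0.79 and 0.67 TPM and at 0.21 and 0.22 TPM. Rab38 rested on 5 and 7 counts. Markers of melanocytes were near 0 in the same libraries, with 1 and 5 counts for Mlana, 9 and 9 for Pmel and 2 and 0 for Tyr.

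Rab genes of surface delivery and the cilium held 7.05% ± 0.12 of family TPM, and all 7 reached 1 TPM in both libraries. Rab10, which delivers membrane to the surface and to growing axons, was at 59.4 and 57.3 TPM. Rab12, counted in this group although it acts between recycling endosomes and lysosomes, was at 52.0 and 49.6 TPM. Rab28, a Rab of photoreceptor cilia, averaged 32.9 ± 0.346 TPM, and Rab8a, Rab23 and Rab8b, which act at the cilium, at the plasma membrane or in Hedgehog signalling, stood between 14.4 and 13.6 TPM. Rab13, known from tight junctions, was lowest at 3.89 and 3.39 TPM.

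The 5 Rab genes outside these groups held 1.57% ± 0.0613 of family TPM. Rab40c and Rab40b, whose proteins carry a SOCS box that joins ubiquitin ligases, averaged 20.8 ± 1.41 and 20.3 ± 2.44 TPM (SD, n = 2). Rab42 was at 0.59 and 0.69 TPM, from 8 and 10 counts, and Rab44, a long Rab known from immune cells, had 1 count in each library. Rab19 had 0 counts in both. A count of 0 allows up to 3 counts, which for a transcript of 1 kb corresponds to 0.163 and 0.152 TPM in replicates 1 and 2 and covers counting error only.

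Within subfamilies, 1 paralog often held most of the TPM. There were 14 subfamilies of 2 or more genes, with 31 genes in them. Rab3a held 75.1% ± 0.774 of Rab3 TPM, Rab3c 16.2% ± 0.515, Rab3b 7.34% ± 0.197 and Rab3d 1.41% ± 0.0621. Rab7 held 99.4% against Rab7b, Rab39b 95.97% ± 0.602 against Rab39, and Rab2a 87.7% ± 0.529 against Rab2b. Other pairs were nearly even in TPM over all transcripts. Rab40c held 50.7% ± 1.31 against Rab40b, Rab8a 51.6% ± 0.347 against Rab8b, and Rab1a 53.1% ± 1.16 against Rab1b. The TPM of Rab8a includes 53.4% and 54.2% in transcripts not typed protein_coding. Its coding transcript Rab8a-201 averaged 6.685 TPM, against 13.565 TPM for Rab8b-201, the only transcript of Rab8b. The paralogs within the subfamilies remain well apart in sequence over the alignment of their principal transcripts. Identity of coding bases ran from 63.1% between Rab7 and Rab7b to 79.2% between Rab8a and Rab8b.

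The shares depended most on the quantification in a pair of subfamilies. Rab6b held 60.3% ± 0.364 of Rab6 TPM in the alignment-based tables, but 48.9% in replicate 1 and 51.0% in replicate 2 in the read-based ones, so that Rab6a and Rab6b could not be ordered there. Rab5c held 37.1% ± 0.13 of Rab5 TPM in the alignment-based tables and 51.9% and 49.8% in the read-based ones. The order within the nearly even pairs was not fixed either. By reads Rab8a held 49.3% and 48.7%, Rab1a 49.8% and 51.7%, and Rab40c 50.2% and 49.4% in replicates 1 and 2. Both quantifications placed Rab3a, Rab7, Rab39b and Rab2a far above their paralogs.

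**Figure D2:**
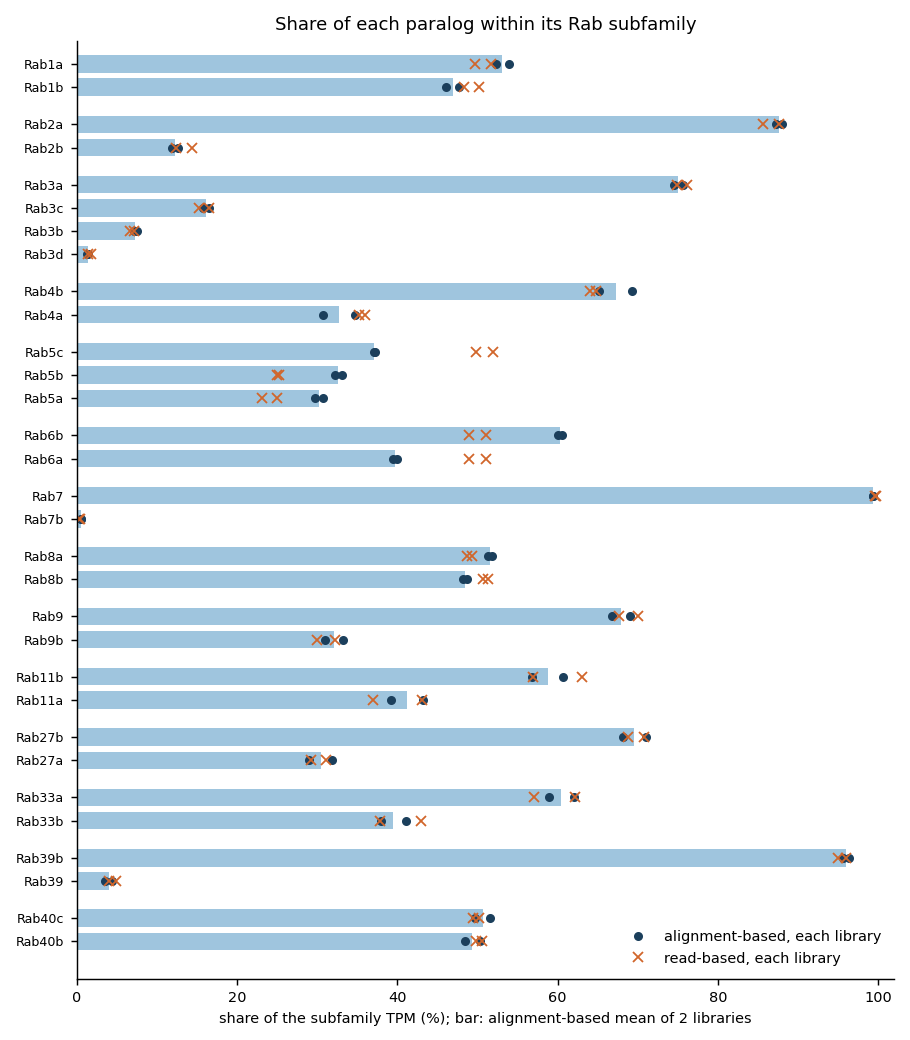
Share of subfamily TPM (%) for each gene of the 14 Rab subfamilies with 2 or more genes; bars are the alignment-based means of 2 libraries, filled points the alignment-based and crosses the read-based values of each library. The crosses leave the bars most clearly for Rab5c and for Rab6a and Rab6b.

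The level of a Rab gene was compared between the quantifications after TPM in each table was rescaled to a common sum over nuclear protein-coding genes, since the tables differ in how much TPM non-coding RNA takes. Of the 40 Rab genes that averaged 10 TPM or more, 34 lay within 1.3-fold of each other, 5 were higher by more than that in the read-based tables and Rab8a was lower, at 0.761 of the alignment-based level. The 5 higher genes were Rab7 (1.66-fold), Rab5c (1.55-fold), Rab18 (1.53-fold), Rab34 (1.46-fold) and Rab6a (1.37-fold). Over all 59 genes the mean TPM of the quantifications had a Spearman's rho of 0.995, as a description.

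In each of these 5 genes the read-based tables placed a sizeable share of TPM in transcripts under 600 bases, a limit chosen after the values were seen. In Rab7 such transcripts took 41.7% and 47.2% of read-based TPM in replicates 1 and 2, against 3.93% and 6.71% of alignment-based TPM. In Rab5c the values were 49.5% and 44.3% against 4.81% and 0.677%, in Rab18 39.5% and 40.7% against 2.41% and 3.77%, and in Rab6a 40.4% and 36.5% against 3.04% and 2.55%. In Rab34 they were 30.8% and 37.2% against 29.6% and 10.1%. Rab11b had a like split, 49.3% and 52.0% against 0.229% and 0%, with a level 1.27-fold higher. Other genes lacked this split: Rab1b was 1.25-fold higher with 0% in such transcripts by either quantification. Rab11a was 1.21-fold higher with a lower read-based share, 31.5% and 24.3% against 48.9% and 45.3%. A sizeable read-based share also occurred without a higher level. Rab30, at 0.99 of its alignment-based level, had 40.7% and 19.7% against 22.9% and 17.5%. Rab8a, the gene that was lower by reads, had 39.7% and 36.8% against 53.4% and 54.2%. Over the whole family, the 62 transcripts under 600 bases took 16.2% and 15.8% of read-based TPM and 4.27% and 3.72% of alignment-based TPM, and their part in the level differences was not tested.

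**Figure D3:**
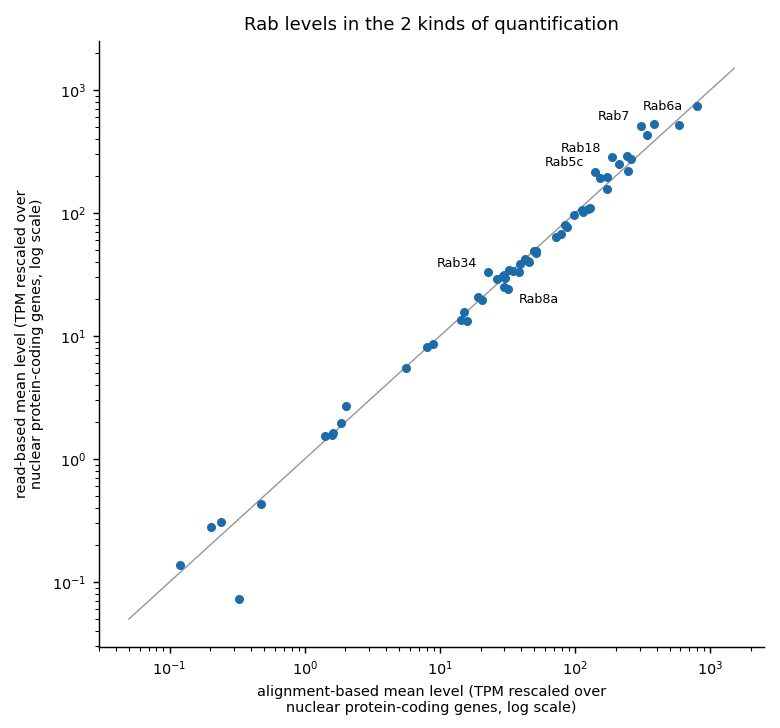
Mean level of 58 Rab genes in the read-based tables against the alignment-based tables (TPM rescaled over nuclear protein-coding genes, log axes), with the line of equality; Rab19, at 0 in the alignment-based tables, is left out. The 6 named genes at 10 TPM or more lie beyond 1.3-fold from the line, 5 above it and Rab8a below it.

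Rab6a is annotated with forms that differ by a coding exon, and in human cells the corresponding forms are known to encode proteins that differ in their binding partners. Both exons are 106 bases long and lie next to each other on the plus strand of chromosome 7 in mm10. They are shown 5′ to 3′ from GENCODE M21, with the 30 bases at which they differ in capitals.
Rab6a-201 (chr7:100629838-100629943): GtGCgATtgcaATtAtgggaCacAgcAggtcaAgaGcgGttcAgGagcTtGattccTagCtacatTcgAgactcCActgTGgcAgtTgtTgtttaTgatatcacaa
Rab6a-202 and Rab6a-203 (chr7:100629666-100629771): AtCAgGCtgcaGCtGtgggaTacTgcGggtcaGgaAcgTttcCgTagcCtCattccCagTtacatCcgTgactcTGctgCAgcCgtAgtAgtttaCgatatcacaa

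The exons are 71.7% identical, and the motif of the GTP-binding fold occurs in both. Rab6a-201 took 88.1% and 89.7% of the gene's alignment-based TPM in replicates 1 and 2, and Rab6a-203 8.89% and 7.73%, while Rab6a-202 was at 0 TPM in both. In the read-based tables Rab6a-201 took 55.7% and 60.5%, Rab6a-203 3.26% and 1.89%, and Rab6a-202 0.61% and 1.09%. Most of the rest went to Rab6a-204, a retained-intron transcript of 567 bases, at 40.4% and 36.5%. Among the coding forms, then, Rab6a-201 was highest in both libraries by either quantification.

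Rab28 has 3 coding transcripts with different last coding exons, which set the tail. That of Rab28-205 has only 6 coding bases and is not shown. The exon of Rab28-201 and that of Rab28-203 lie on the minus strand of chromosome 5 in mm10, and each ends with a lone cysteine codon 4th from the end, in capitals.
Rab28-201 (chr5:41625773-41625862): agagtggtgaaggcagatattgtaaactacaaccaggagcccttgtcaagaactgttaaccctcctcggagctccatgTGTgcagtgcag
Rab28-203 (chr5:41626995-41627081): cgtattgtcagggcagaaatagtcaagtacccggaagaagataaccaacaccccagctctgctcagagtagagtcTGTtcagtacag
Rab28-201 took 67.9% and 61.0% of the gene's alignment-based TPM and Rab28-203 19.7% and 24.8%. The read-based shares were 63.8% and 57.3% for Rab28-201 and 20.3% and 24.1% for Rab28-203. The quantifications thus gave the same order of these forms in both libraries.

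The 59 Rab genes have 256 annotated transcripts, of which 155 are typed protein_coding, 53 retained_intron, 35 processed_transcript and 13 nonsense_mediated_decay. Transcripts not typed protein_coding took 7.78% ± 0.0602 of Rab TPM in the alignment-based tables (SD, n = 2), against 17.4% and 17.0% of the TPM of all nuclear protein-coding genes. In the read-based tables the share was 15.1% ± 0.382 for Rab genes, against 20.5% and 20.1%. Retained introns accounted for 3.94% and 3.82% of alignment-based Rab TPM in replicates 1 and 2.

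At a mean of 5 TPM or more, 9 Rab genes had at least 20% of TPM in such transcripts on average in both quantifications: Rab11b, Rab35, Rab4b, Rab24, Rab26, Rab36, Rab8a, Rab23 and Rab34. Rab23, an inhibitor of Hedgehog signalling, had 65.0% and 56.9% alignment-based and 72.9% and 69.6% read-based. Rab8a had 53.4% and 54.2% alignment-based and 39.7% and 36.8% read-based, nearly all in the retained-intron transcript Rab8a-202 of 542 bases. Rab26 had 49.4% and 52.6% alignment-based and 33.1% and 34.8% read-based. The abundant genes Rab7, Rab2a, Rab10, Rab6b and Rab1b have only transcripts typed protein_coding. Their share of 0% in both libraries and both quantifications is thus fixed by the annotation.

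Rab35 had 31.3% and 29.3% alignment-based and 41.1% and 38.3% read-based, all of it in Rab35-202, which is typed nonsense_mediated_decay. Rab36 had 41.7% and 38.9% alignment-based and 43.6% and 41.8% read-based. Rab24 had 23.5% in both libraries alignment-based and 23.3% and 21.8% read-based, and Rab4b 16.8% and 25.4% alignment-based and 20.8% and 25.4% read-based. Rab34 had 28.2% and 17.4% alignment-based and 21.8% and 24.3% read-based, so its replicates differed more.

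**Figure D4:**
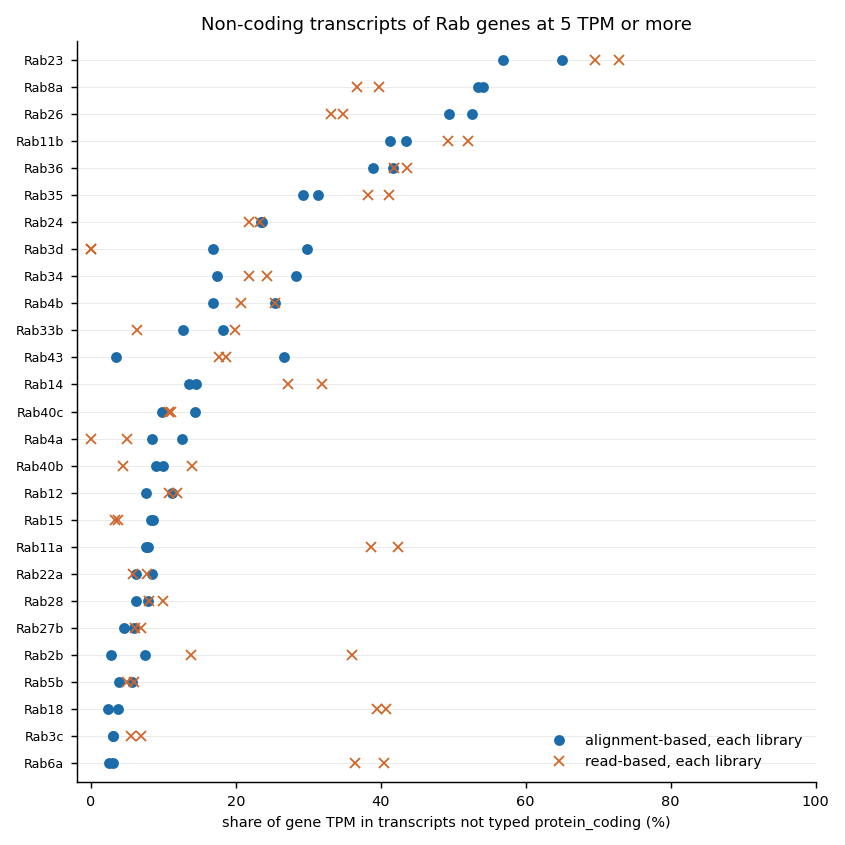
Share of gene TPM (%) in transcripts not typed protein_coding for the 27 Rab genes at a mean of 5 TPM or more that reach 5% in either quantification; filled points are alignment-based and crosses read-based values of each library. Rab23, Rab8a, Rab26, Rab11b, Rab36 and Rab35 lie to the right in both, while Rab18, Rab6a and Rab11a lie to the right only by their crosses.

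Among the 18 Rab genes with a mean of at least 50 TPM, 12 had the same leading transcript in both quantifications and 6 had another. Leads were taken from the mean of the 2 libraries. Between single libraries the lead changed in Rab11a and Rab18 by alignment and in Rab3a and Rab5c by reads. In Rab11b the leading transcript was Rab11b-204, typed nonsense_mediated_decay, with 40.4% and 42.5% of alignment-based TPM and 0% of read-based TPM, and in the read-based tables it was Rab11b-205, a processed transcript of 503 bases, with 49.3% and 52.0%. The coding transcript Rab11b-203 held 32.1% and 30.6% of alignment-based TPM and 30.7% and 27.9% of read-based TPM. The non-coding share of Rab11b was thus high in both quantifications but lay in different transcripts.

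In Rab18 the processed transcript Rab18-202 had 39.5% and 40.7% of read-based TPM and 0% of alignment-based TPM, where Rab18-203 (42.3% and 37.9%) and Rab18-201 (40.1% and 42.4%) led. In Rab11a the leading transcripts by alignment were Rab11a-206, a form of 462 bases, with 47.4% and 43.4%, and Rab11a-208 with 39.6% and 45.2%, whereas Rab11a-206 was at 0% by reads. In Rab7 the alignment-based tables gave 82.4% and 83.5% to Rab7-205 and the read-based ones 41.7% and 47.2% to Rab7-207, and both are typed protein_coding.

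In Rab3a, Rab3a-201 held 79.9% and 77.5% of alignment-based TPM, but 31.5% and 2.65% of read-based TPM, where Rab3a-202 held 24.9% and 51.7%. The read-based level of the whole gene was 0.921 of its alignment-based level. In Rab12, Rab12-205 led by alignment with 90.4% and 88.8% and Rab12-201 led by reads with 88.1% and 89.3%, and the read-based level of the gene was 0.945 of the alignment-based one. Shares of single transcripts in these 6 genes are uncertain for that reason. A kept lead did not always mean a kept share. Rab5c-202 held 93.0% and 96.6% by alignment and 49.0% and 53.4% by reads, and Rab1b-201 92.7% and 95.5% against 59.7% and 59.5%. Rab6b-201 stayed close, with 98.7% and 99.2% against 95.4% and 95.8%.

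Some Rab levels rest on reads that other annotated genes share. Near-identical transcripts of other genes, matching over 80% or more of the shorter transcript with an identity of 98% or above, were found for 8 Rab genes. For Rab11a, Rab22a, Rab43 and Rab4b these are genes annotated over exons of the Rab gene itself and not separate copies. For Rab11b, Rab5b, Rab7 and Rab8b they are processed pseudogenes. Rab11b-ps2, a processed pseudogene, is 99.8% identical to Rab11b over 654 bases. It had 68.2 and 94.9 expected counts and 6.01 and 7.81 TPM in the alignment-based tables, but 85.7 and 100.7 TPM in the read-based ones. Rab11b with the pseudogene added was at 162 TPM, against 155 TPM without it, on average in the alignment-based tables, and at 423 against 330 TPM in the read-based tables.

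The copies of Rab5b (Gm13991), Rab7 (Rab7-ps1) and Rab8b (Gm20689) had at most 21.9 expected counts. On the same strand, 6 Rab genes share exonic bases with another gene. Rab43 shares 4164 with Gm45140, a protein-coding gene with 112 and 118 expected counts in replicates 1 and 2. Rab26 shares 267 with Traf7, a protein-coding gene with 1138.51 and 1139.25 expected counts, against 584 and 667 for Rab26. Rab4b shares 1280 with Gm21983, at 0 expected counts in both libraries but 38.6 and 53.8 read-based counts. Exonic bases on the opposite strand overlapped another gene in 15 Rab genes, among them Rab10 with Rab10os, Rab24 with Prelid1 (1258 bases), Rab6a with Mrpl48 (708 bases) and Rab2b with Tox4 (195 bases). Whether counting used the strand is not given in the sources used here, so reads from such overlaps cannot be told apart.

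Between the replicates no Rab gene was called different. Ratios of replicate 2 over replicate 1 came from expected counts after scaling, with an exact 95% interval for counting error, and a gene with 10 or more counts on average was called where its interval lay wholly beyond 2-fold. Of 52 Rab genes with that many counts, 0 were called, where 57 of 18562 annotated genes (0.307%) and 28 of 14633 nuclear protein-coding genes (0.191%) were. At a limit of 1.5-fold the count was again 0 of 52, against 0.479% of annotated and 0.362% of protein-coding genes. The other 7 Rab genes had too few counts. Against a background of that size, the count of 0 does not set the Rab genes apart.

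The log2 ratios of the 52 genes ran from -0.48 to 0.28 with a median of -0.01, and the median over nuclear protein-coding genes was -0.0003. Of the 46 Rab genes that averaged 100 counts or more, 45 differed by less than 1.2-fold (97.8%), against 95.5% of 11932 such protein-coding genes, and the exception was Rab43. The limit of 1.2-fold was chosen after the values were seen. The interval left out equality in 10 of the 52 Rab genes (19.2%), against 16.2% of protein-coding genes and 15.1% of annotated genes. It lay above equality in 4 Rab genes, against 8.73% of protein-coding and 8.17% of annotated genes, and below it in 6, against 7.5% and 6.89%.

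The deepest of these 10 were Rab3c, with a log2 ratio of 0.04 (95% interval 0.01 to 0.08), Rab3a, with -0.07 (-0.11 to -0.03), and Rab15, with 0.08 (0.03 to 0.13). Rab43 had the highest ratio, 0.28 (0.10 to 0.46), from 568.04 counts in replicate 2 and 460.58 in replicate 1, while its TPM was lower in replicate 2 (6.18 TPM) than in replicate 1 (8.2 TPM), since its mean transcript was set at 4299 and 2847 bases. Rab4a had the lowest of the 10, -0.21 (-0.39 to -0.02). The interval leaves out any spread between animals. The markers of choroid plexus and of oligodendrocytes summed to more TPM in replicate 2 than in replicate 1. In choroid plexus most of the rise lay in Ttr, at 6.12 and 34.3 TPM, with Kl at 1.58 and 1.81 TPM. The part of these markers in the Rab ratios was not tested.

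**Figure D5:**
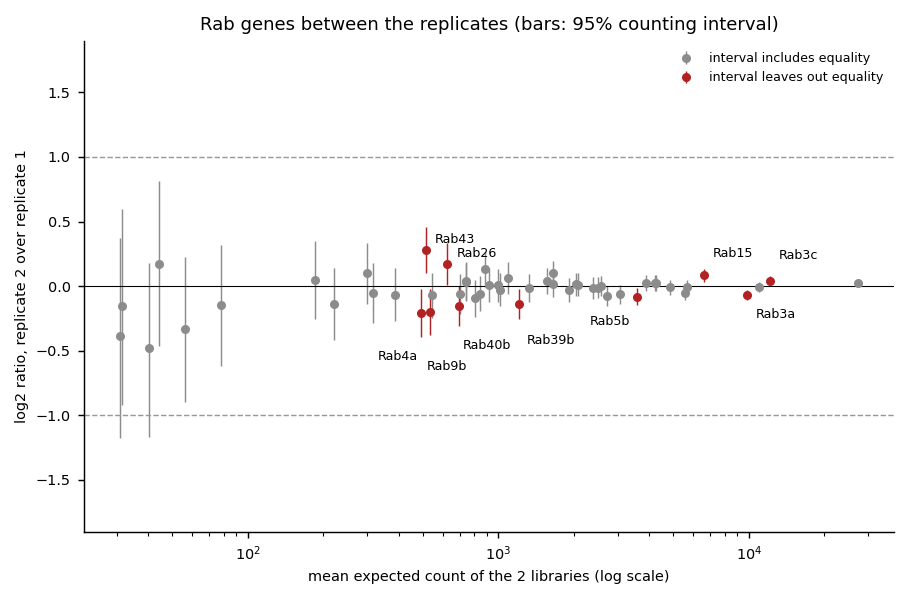
Log2 ratio of replicate 2 over replicate 1 for the 52 Rab genes that averaged 10 or more expected counts, against the mean expected count (log axis); bars are exact 95% counting intervals and dashed lines mark 2-fold. All points lie between the dashed lines, and the 10 named genes have intervals that leave out equality.

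The machinery that loads, activates and inactivates Rab proteins was expressed alongside them. As background for its 4 lists, 58.8% of nuclear protein-coding genes reached 1 TPM in both libraries. Their medians in replicates 1 and 2 were 3.82 and 3.59 TPM over all genes and 16.6 and 15.5 TPM over those detected. All 8 factors of prenylation and recycling reached 1 TPM in both libraries, with medians of 25.8 TPM in both. Among them, Rabac1, a prenylated Rab acceptor, was at 137 and 123 TPM, and Gdi2, a dissociation inhibitor that extracts Rab proteins from membranes, at 132 and 115 TPM. Chml, a Rab escort protein, was lowest at 4.21 and 4.26 TPM.

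Of 33 exchange factors, which load Rab proteins with GTP, 30 reached 1 TPM in both libraries, with medians of 16.5 and 15.7 TPM. Madd, an exchange factor of Rab3 and Rab27, was highest at 113 and 101 TPM, followed by Dennd5a at 96.9 and 96.1 TPM and Gapvd1, an exchange factor of Rab5, at 44.5 and 42.4 TPM. Dennd2d was lowest at 0.14 and 0.06 TPM. Of 36 GTPase activators, which end the GTP-bound state, 34 reached 1 TPM, with medians of 20.2 and 19.1 TPM. Rabgap1l (88.6 and 86.4 TPM), Sgsm1 (75.9 and 79.2 TPM) and Tbc1d9b (54.7 and 53.2 TPM) were highest, and Tbc1d21 had 0 counts in both libraries.

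Of 43 effectors, 37 reached 1 TPM in both libraries, with medians of 23.4 and 21.1 TPM. The highest were Rims1, the active-zone effector of Rab3, at 174 and 171 TPM, Rph3a (rabphilin), another Rab3 effector, at 138 and 141 TPM, and Rab11fip4, an effector of Rab11, at 106 and 105 TPM. Sytl3, an effector of Rab27, was lowest at 0.09 and 0.33 TPM. None of the tested genes of the 4 lists (8, 32, 35 and 42 genes in the order given) was called different between the replicates. With 0.307% of annotated and 0.191% of nuclear protein-coding genes called, this does not set the lists apart. Their median log2 ratios were -0.07, 0.01, -0.02 and 0.01.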

How the data were processed

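The first kind of deposited table (alignment-based) holds expected counts and TPM of genes and of transcripts, and the percent of each gene's TPM in a transcript; the authors made it from transcriptome alignments, with build mm10 and GENCODE M21, as the deposited list of files states. It also holds interval bounds of TPM, read as a signal and left unused, since the deposited bounds do not always contain the deposited TPM. In the second kind (read-based) the authors deposited estimated counts and TPM of transcripts quantified without those alignments, summed here per gene. Aligner and quantifiers: not given in the sources used here. The reference carries C57BL/6J sequence, also for reads of CAST/EiJ alleles.

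TMM scaling (edgeR 4.0.16 under R 4.3.3) gave replicate 2 a size of 1.01 relative to replicate 1. Spike-ins, the phage control and transfer RNA features (0.372% and 0.363% of counts) stayed out. Log2 ratios had a prior count of 0.5 and Clopper-Pearson 95% intervals (scipy 1.17.1); the rule for calls was tested on simulated data. Intervals and floors cover counting error only, as reads carry no molecular identifiers. With 1 group no p-value is given. Coding sequences were aligned with Biopython 1.88 and copies found with blastn 2.17.0. Values are given for the 12 highest members, the highest 2 and lowest 1 of each role list, all members below 1 TPM, called genes, and the highest 3 and lowest 1 of each list of regulators. The members, lists and this rule were chosen with earlier results of these data known. All listed regulators matched, Dennd2b through its older symbol. The value of 1 regulator that this rule names is not reported here.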

Additional observations from a re-analysis of the deposited data

Results flagged for a closer look

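A signal above the 3 counts that a count of 0 allows was present in both libraries of the alignment-based tables in 4 genes that carry a Rab symbol but lie outside the rule. Rab10os, a gene antisense to Rab10 that shares 143 exonic bases with it, had a mean of 984.5 expected counts (996 in replicate 1 and 973 in replicate 2) at 22.9 and 18.6 TPM, against 4143 and 4282 counts for Rab10. Rab11b-ps2, the pseudogene copy of Rab11b, had a mean of 81.5 expected counts. Rab26os, antisense to Rab26, had a mean of 32 expected counts at 7.08 and 6.97 TPM, but only 3.69 and 0.399 TPM in the read-based tables. Rab7-ps1, a pseudogene copy of Rab7, had a mean of 8.32 expected counts, whereas its read-based counts of 2.38 and 0 did not exceed 3. The pseudogenes Rab5a-ps and Rab9b-ps1 had 0 expected counts in both libraries of the alignment-based tables.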

How the results depend on the processing

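No paired analysis was possible because the series has 1 group and no comparison between groups. Depth limits the 7 Rab genes with a mean count under 10. The median Rab level, 17.7 TPM on average, was 27.9 TPM in the read-based tables, 38.9 TPM rescaled over nuclear protein-coding genes and 21.8 TPM over members averaging 10 or more counts. The Rab share of nuclear protein-coding TPM, 0.585%, was 0.634% read-based and 0.544% by expected counts. The share of the 10 highest was 63.9% read-based, and that of transcripts not typed protein_coding 15.1%. The detected members numbered 53 read-based, 39 at 10 TPM and 54 at 0.1 TPM. Over single libraries the detected count ran from 48 to 49, the median from 16.55 to 18.8 TPM, the family share from 0.58% to 0.59%, the share of the 10 highest from 60.9% to 61.0% and the non-coding share from 7.73% to 7.82%. No Rab gene was called under DESeq2 1.42.0 size factors, library totals, spike-in totals, no filter, a mean count of at least 100, a 1.5-fold limit or read-based counts. Calls among all annotated genes were few as well, from 12 of 12843 at a mean count of at least 100 to 89 of 18562 at the 1.5-fold limit. The median log2 ratio of the Rab genes ran from -0.04 to -0.004. A ratio between replicates cannot be formed without either library. Levels of 57 of 59 single genes moved beyond the replicate spread in the read-based tables and likewise after rescaling. Rescaling raises every level above 0 by construction, since nuclear protein-coding genes took 46.7% and 44.1% of alignment-based TPM in replicates 1 and 2. They took 76.5% and 75.5% of read-based TPM, so unscaled levels of the 2 quantifications differ in scale. With both rescaled, 34 of the 40 genes averaging 10 TPM or more lay within 1.3-fold. Adding Rab11b-ps2 to Rab11b was chosen after seeing the data.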
